A study of Drosophila melanogaster with 8 samples.

Results

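The samples described here are the pupal central nervous system (CNS) of Drosophila melanogaster at 36 h after puparium formation (APF), taken directly at the end of a pan-neuronal knockdown of dStim. They are 4 of the 8 samples of the series, chosen by their labelled age, with 2 biological replicates of wild type and 2 of knockdown. Wild type animals were Canton S. Knockdown animals carried ElavC155GAL4, a pan-neuronal GAL4 driver inserted on the X chromosome, together with dStimRNAi and tubulinGAL80ts, a temperature-sensitive repressor that holds GAL4 inactive until the temperature is raised. Flies were reared at 25 °C and moved to 29 °C for a knockdown of 24 h, from 12 h to 36 h APF. About 10 CNS were pooled per sample. The wild type animals carried none of these transgenes, so the effects of knockdown, of the transgenes and of the strain background cannot be told apart in this comparison. All cells of the CNS, and any tissue that stayed attached to it, contributed RNA, while the driver acts in neurons only, and fewer cells of a type cannot be told apart from less RNA per cell.

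Store-operated calcium entry (SOCE) refills the cell with calcium from outside when the endoplasmic reticulum runs low. STIM is the sensor in the reticulum membrane that detects the loss and opens Orai, a calcium channel of the plasma membrane. At this stage of pupal life larval neurons are being remodelled, adult neurons are extending axons and dendrites, and the epidermis and muscles of the adult are being built around the nervous system.

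The measurement was an FPKM value (fragments per kilobase of transcript, scaled to the depth of the library) for each gene, pooled by the authors over the replicates of a group. There is thus 1 value for wild type and 1 for knockdown per gene, with no replicate error, and no test was made. Differences are given as the log2 ratio of knockdown over wild type FPKM, in which -1 is a halving. A gene was counted as past 2-fold when its mean FPKM over the groups was at least 1 and the ratio was 2-fold or more in either direction. Depth per sample is unknown from these values.

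Of 13989 listed genes, 9258 had a mean FPKM of at least 1 and a value above 0 in both groups. Of these, 195 (2.11%) were at least 2-fold higher in knockdown and 280 (3.02%) at least 2-fold lower, together 5.13%. The median log2 ratio over the 9258 genes was -0.00, with quartiles of -0.15 and 0.14. Large ratios were concentrated among weakly expressed genes. Between a mean FPKM of 1 and 3, 84 of 942 genes were at least 2-fold higher and 108 at least 2-fold lower. Between 30 and 100 FPKM the counts were 13 and 16 of 2738. Short non-coding RNAs stood out by the same measure, as 34 of 80 small nucleolar RNAs (42.5%) were past 2-fold against 408 of 8753 protein-coding genes (4.66%). Of those small nucleolar RNAs, 25 were lower and 9 were higher in knockdown. Those with the largest FPKM differences shared locus entries with other genes, so the counting of their reads is uncertain. Short non-coding RNAs also made up 86 of the 101 genes listed at 0 in 1 group. How reliably the libraries measured such short RNAs was not tested. The X chromosome, which carries the driver, had 3.51% of its 1537 genes past 2-fold, against 4.40% to 6.33% on the major autosomal arms.

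The ratio also moved with the length of the transcript. Over 8 equal bins of length, from the longest annotated transcript of each gene, the median log2 ratio went from -0.08 in the shortest bin (63 to 882 bases) to 0.12 in the longest (4975 to 56489 bases). In the longest bin 77.2% of genes were above their wild type level, and in the shortest bin 37.8%. For most classes described by a small shift, the median is therefore given below beside the same median after each gene's ratio had been centred on its length bin, in 20 bins. What the length trend owes to biology or to the libraries was not tested.

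**Figure D1:**
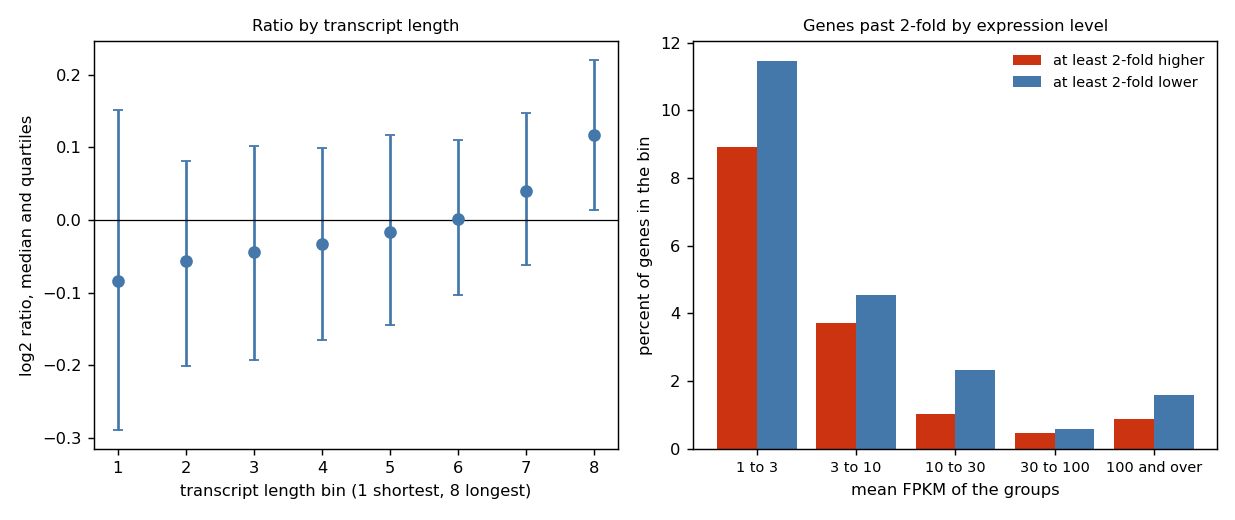
Left, median and quartiles of the log2 ratio of knockdown over wild type FPKM at 36 h APF in 8 equal bins of transcript length, from -0.08 in bin 1 to 0.12 in bin 8. Right, percent of genes at least 2-fold higher (red) or lower (blue) in bins of mean FPKM; the share is highest in the bin from 1 to 3 FPKM, where 84 and 108 of 942 genes were past 2-fold.

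The genes of SOCE were examined first, since they include the target. Stim (FBgn0045073) was listed at 42.2 FPKM in wild type and 33.9 in knockdown, a log2 ratio of -0.32, which is 80.3% of wild type. The Stim values include RNA of cells in which the driver does not act. Whether RNA of the dStimRNAi transgene was counted to Stim was not tested. The channel gene, olf186-F in the files and Orai in current naming, stood at 77.6 FPKM in wild type and 43.1 in knockdown (log2 ratio -0.85). As listed, the channel gene was further from its wild type level than Stim. The locus entry of olf186-F was shared with other genes, and the counting of reads between them is uncertain. The stores' own channels and pump were at their wild type levels. Itp-r83A, the inositol trisphosphate receptor, was at 14.1 and 14.02 FPKM in wild type and knockdown, Rya-r44F, the ryanodine receptor, at 12.8 and 13.5 FPKM, and Ca-P60A, the SERCA pump that refills the store, at 104.1 and 103 FPKM. None of the 5 SOCE genes was past 2-fold, where 5.13% of all genes were.

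Genes that handle or sense cytosolic calcium were likewise within 2-fold in all 28 measured members, with a median of -0.00. Calmodulin (Cam) was listed at 1694 FPKM in wild type and 1664 in knockdown. The lowest ratio belonged to CG5890, an EF-hand calcium sensor gene, at 59.9 FPKM in wild type and 33.1 in knockdown. The highest belonged to NFAT, a transcription factor gene, at 35.1 FPKM in wild type and 58.6 in knockdown, a log2 ratio of 0.74. Exchangers that remove calcium were on the lower side, with Nckx30C at a log2 ratio of -0.54 and Calx at -0.40. In phosphoinositide signalling 1 of 22 genes was past 2-fold in each direction. Inos, which encodes the synthase that makes inositol phosphate from glucose phosphate, was at 269.6 FPKM in wild type and 112 in knockdown, 2.41-fold lower. IP3K1, a kinase of inositol trisphosphate, was at 2.65 FPKM in wild type and 6.31 in knockdown, 2.38-fold higher, and its locus entry was shared with other genes. Rala, a small GTPase of vesicle trafficking, was at 105 FPKM in wild type and 56.3 in knockdown (log2 ratio -0.90). Its effector Rlip had a log2 ratio of -0.52, and the exocyst subunits on which Ral acts, such as sec5 at -0.15 and exo84 at -0.12, stayed within 2-fold.

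The muscle and sarcomere genes formed the class with the lowest median. Sarcomeres are built from thick filaments of myosin and thin filaments of actin, with troponin and tropomyosin as the calcium switch on the thin filament. Of 34 members past the minimum, 13 (38.2%) were at least 2-fold lower and none at least 2-fold higher, against 3.02% and 2.11% of all genes. The median log2 ratio was -0.63, with quartiles of -1.24 and 0.11, and was -0.59 after centring on length. The class was not uniformly lower. All 5 thick filament genes were past 2-fold. Myosin heavy chain (Mhc) was listed at 15.1 FPKM in wild type and 5.91 in knockdown, 2.56-fold lower. The light chains were close to it, with Mlc1 at a log2 ratio of -1.11 and Mlc2 at -1.30. Paramyosin (Prm) had -1.15 and flightin (fln), a thick filament protein of flight muscle, -1.10.

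Among 11 thin filament, troponin and tropomyosin genes 6 were at least 2-fold lower, and only Tm1 was above its wild type level. The troponin C gene TpnC47D was listed at 2.52 FPKM in wild type and 0.118 in knockdown, and TpnC41C at 9.11 FPKM in wild type and 2.42 in knockdown. The muscle actin Act79B was at 16.4 FPKM in wild type and 1.63 in knockdown, a log2 ratio of -3.33. The troponin I gene wupA and the troponin T gene up were 2.46-fold and 2.34-fold lower, and Tm2, a tropomyosin, was 2.38-fold lower. The other muscle actins, Act57B at -0.60 and Act87E at -0.63, were lower by less than 2-fold. By contrast the cytoplasmic actins stood slightly above wild type, with Act5C at 2831 and 3100.1 FPKM and Act42A at 781 and 894 FPKM.

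Genes of the Z-disc, of the giant elastic proteins and of muscle attachment lay on both sides of wild type. The LIM-domain genes Mlp60A and Mlp84B had log2 ratios of -1.56 and -1.42, whereas the other 7 in this group were within 2-fold, among them alpha-actinin (Actn) at 0.16, Zasp52 at 0.10 and the titin-like sls at 0.48 above wild type, and the titin-like bt at -0.75 and Zasp66 at -0.66 below it. The 9 genes for attachment, nuclear positioning, energy and regulation were all within 2-fold, with integrin beta (mys) at 0.06, talin (rhea) at 0.15 and the integrin alpha gene if at -0.63. Mef2, the transcription factor of muscle differentiation, was at 12.4 FPKM in wild type and 12.4 in knockdown. Many of this second set are also expressed outside muscle. The summed FPKM of the 38 listed members was 2091 in wild type and 1824 in knockdown, of which arginine kinase (Argk) alone made up 1139.6 and 1000. How much attached muscle each dissection held was not measured, and its part in the lower values was not tested. At 72 h, after recovery, the class had a median of -0.00 with 6 members at least 2-fold higher and 3 lower than in wild type of that age.

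**Figure D2:**
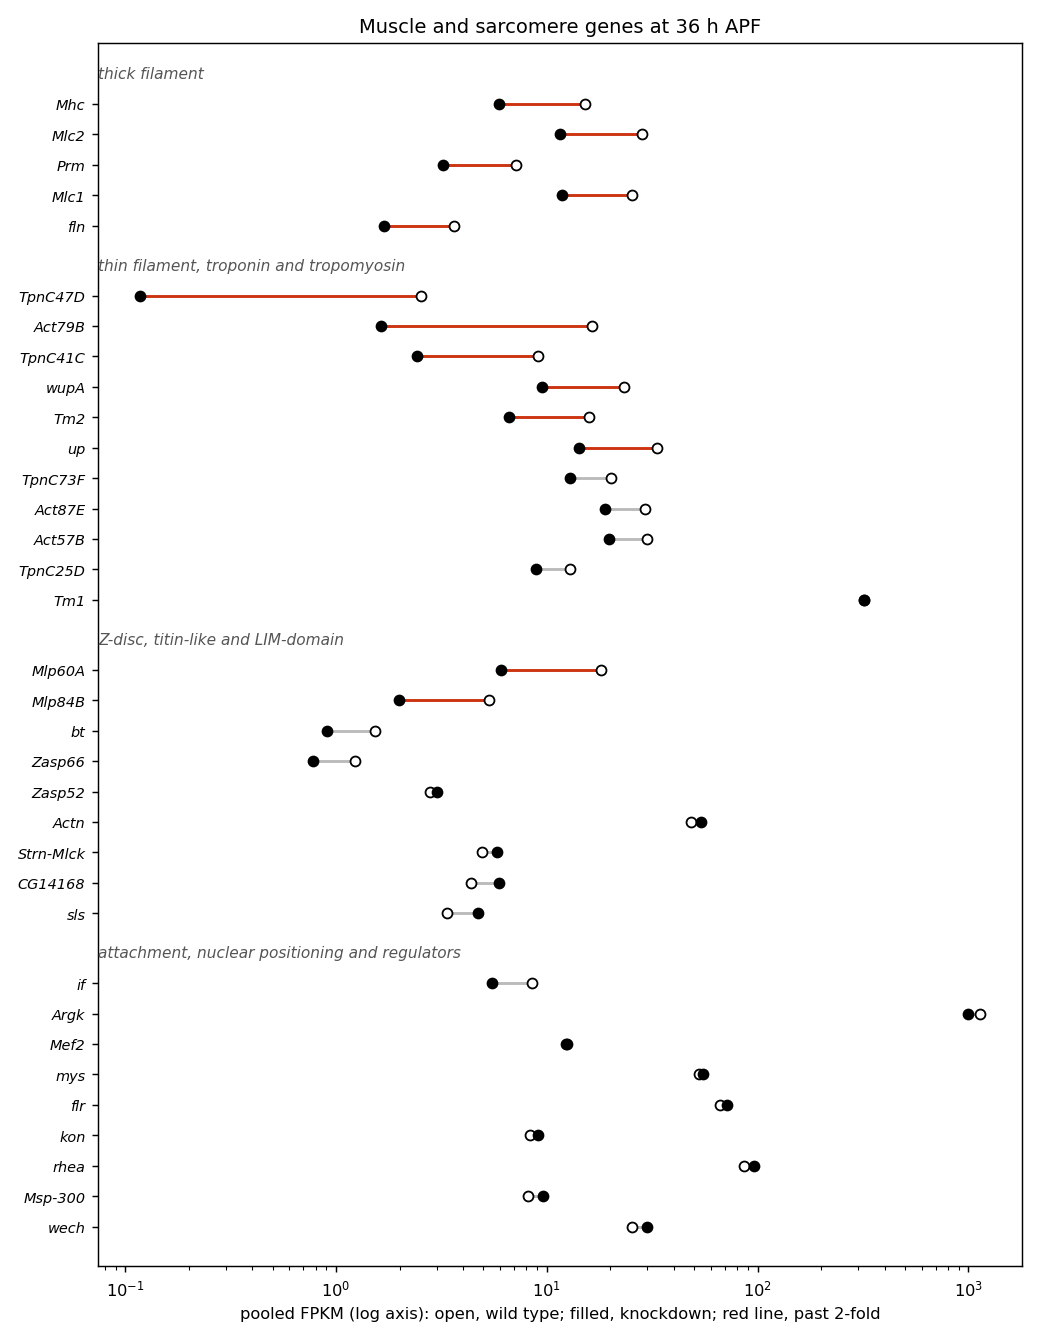
Pooled FPKM of 34 muscle and sarcomere genes at 36 h APF on a log axis, sorted by role, with open circles for wild type and filled circles for knockdown; red lines join values past 2-fold. All 5 thick filament genes and 6 of 11 thin filament genes are past 2-fold lower, while Tm1, Actn, rhea and Mef2 overlap or nearly overlap their wild type values.

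Genes of the cuticle and of the apical extracellular matrix showed large ratios in both directions. The cuticle of insects is chitin bound by structural proteins, and epithelia shape it with a transient apical matrix rich in zona pellucida domain proteins. Of 31 Rebers-Riddiford and related cuticle protein genes past the minimum, out of 95 listed, 8 (25.8%) were at least 2-fold higher and 6 (19.4%) at least 2-fold lower, against 2.11% and 3.02% of all genes. Among all genes of 1 to 3 FPKM, 20.4% were past 2-fold in either direction. The most abundant, Cpr66D, was listed at 375 FPKM in wild type and 133 in knockdown, and Cpr65Ea went from 12.4 to 1.01 FPKM. Cpr49Ae (-2.40) and Cpr72Ec (-2.04) were also lower by more than 2 log2 units. In the other direction were Acp1, an adult cuticle protein gene, from 0.314 to 3.28 FPKM, and Cpr47Ec, from 4.59 to 16.4 FPKM. The median ratio of the family, 0.28, therefore describes few of its members. Summed over the listed family, wild type held 618 FPKM and knockdown 417, and leaving out Cpr66D gave 243 and 284.

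Genes that synthesise, bind or remodel chitin lay mostly below wild type, 14 of 19, with a median of -0.24. The chitin deacetylase genes serp and verm, neighbours on chromosome arm 3L, were 5.35-fold and 3.84-fold lower, at 19.1 and 3.57 FPKM and 40.99 and 10.7 FPKM in wild type and knockdown. Gasp, a chitin-binding protein gene of the tracheal lumen, was at 121 FPKM in wild type and 40.6 in knockdown. The chitin synthase gene kkv was within 2-fold at -0.14. Chitinase Cht5, the most abundant of the class, was instead higher, at 447 FPKM in wild type and 778 in knockdown (log2 ratio 0.80). The 9 genes for zona pellucida domain proteins were all above wild type, with a median of 0.47. Among them pio was 2.22-fold higher (20.6 and 45.7 FPKM), neo had a log2 ratio of 0.91, and dyl was level at 0.00. The protease gene stl, of the ADAMTS family, was 2.19-fold higher, and yellow-e, of the yellow family, was 7.69-fold lower at 5.67 and 0.737 FPKM. These groups were formed by known role after the values had been seen.

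**Figure D3:**
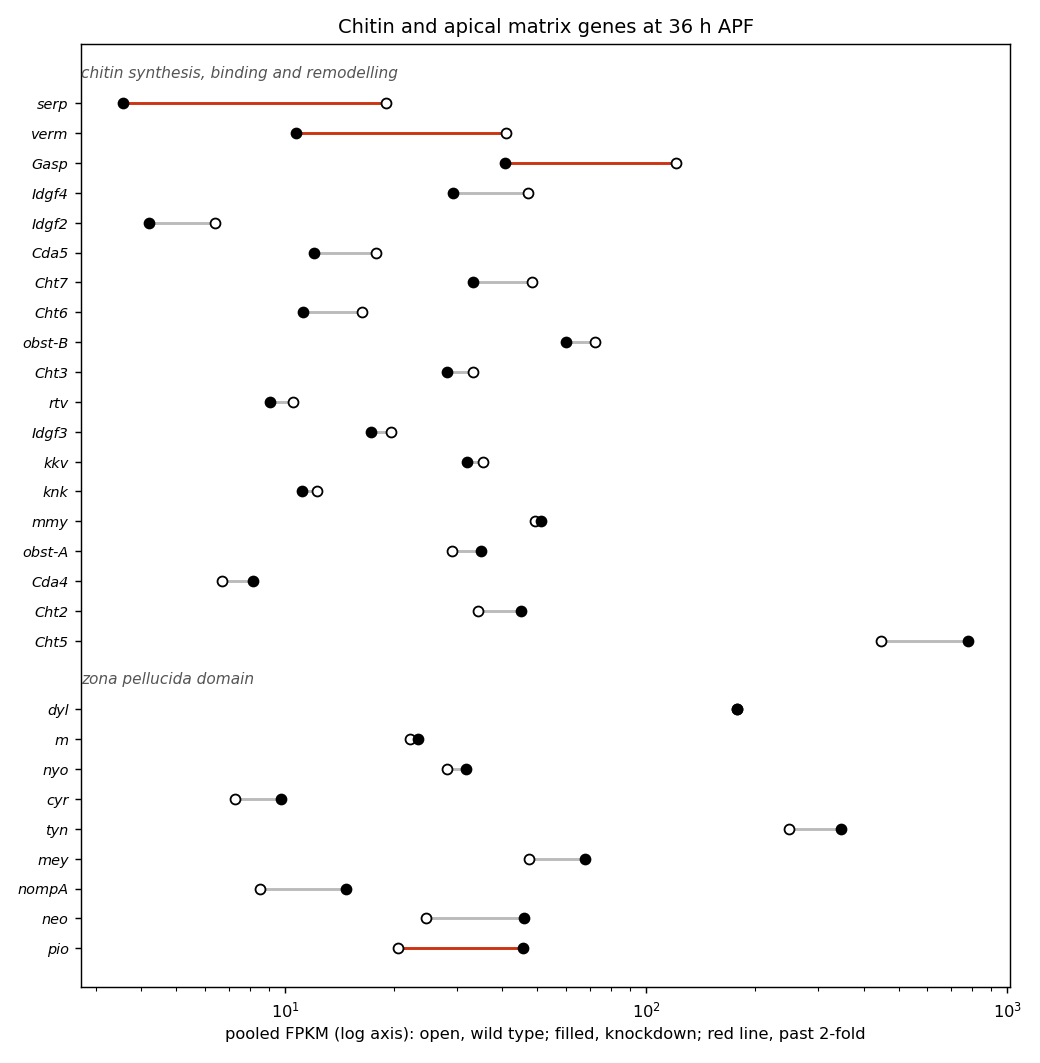
Pooled FPKM of 28 chitin and apical matrix genes at 36 h APF on a log axis, with open circles for wild type and filled circles for knockdown; red lines join values past 2-fold. serp, verm and Gasp lie furthest to the lower side, and the 9 zona pellucida domain genes lie level with or above wild type.

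Tracheae, the air tubes that run through the CNS, share some of these genes. Of the 12 tracheal markers past the minimum, 33.3% were past 2-fold, beside 5.13% of all genes. Those past 2-fold were serp, verm and Gasp, lower, and pio, higher, all counted above among the chitin and apical matrix genes. The tracheal transcription factor genes were not lower with them, as trh was listed at 6.30 and 6.60 FPKM and vvl at 14.6 and 16.5 FPKM. The Osiris genes, a family of secretory-pathway proteins of cuticle-forming epithelia, were lower in 10 of 16 members, with a median of -0.30. Osi6 was at 207 FPKM in wild type and 73.4 in knockdown and Osi4 at 645 FPKM in wild type and 372 in knockdown, while Osi9, the most abundant, was at 625 FPKM in wild type and 680.5 in knockdown. TwdlT, a Tweedle cuticle protein gene whose locus entry was shared with other genes, was 3.27-fold lower. In the list for wing disc and epidermis, 28 of 34 genes were above wild type with a median of 0.17, or 0.09 after centring on length. Past 2-fold were CG11382 and CG13897, lower, and CG11226, higher, together 8.82% of the 34 beside 5.13% of all genes. The study had named these same genes from its own screen as linked to wings. The count is thus not independent of these data. The patterning genes of the list were within 2-fold, some level with wild type, such as Dll at 0.03 and vg at -0.03, and some above it, such as wg at 0.41, hh at 0.86 and rn at 0.93. Whether the amount of attached epithelium or trachea differed between the dissections was not measured.

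Neuronal genes were close to wild type. None of 23 pan-neuronal markers was past 2-fold, 18 of them were above wild type, and the median was 0.12, or 0.02 after centring on length. The gene elav, whose enhancers drive the GAL4 line, was listed at 76.7 FPKM in wild type and 91.6 in knockdown. The vesicle protein genes n-syb and Syt1 had log2 ratios of 0.20 and -0.10. Within 31 voltage-gated and other ion channel genes 1 was past 2-fold, CG8713, the leak potassium channel gene sand, at 2.02 FPKM in wild type and 0.973 in knockdown. Sh, the Shaker potassium channel gene, was at 49.3 FPKM in wild type and 78.5 in knockdown, and the calcium channel genes Ca-alpha1D and Ca-alpha1T at log2 ratios of -0.35 and 0.07. Of 12 genes for GABA and glycine transmission 11 lay below wild type, most of them by little (median -0.09, or -0.11 after centring on length). The vesicular transporter gene VGAT was at -0.29 and the synthetic enzyme gene Gad1 at -0.07. Acetylcholine synthesis, glutamate and monoamine genes had medians of -0.05, -0.01 and 0.04, and none of them was past 2-fold. Centring on length moved the median of the 6 acetylcholine synthesis and transport genes to -0.20, and those of the glutamate and monoamine genes to -0.06 and -0.01.

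Neuropeptide genes were below wild type in 31 of 43 cases, with a median of -0.10, or -0.06 after centring on length. Dsk, npf and Ilp7 had the lowest of the named ratios, -0.75, -0.71 and -0.76. Dsk encodes drosulfakinin, a satiety peptide, and npf the neuropeptide F precursor. Nplp3 was at 99.8 FPKM in wild type and 155.6 in knockdown. The only member past 2-fold was the insulin-like peptide gene Ilp5, from 5.32 to 16.3 FPKM, with a locus entry shared with other genes. Of its relatives, Ilp2 at 0.69 and Ilp3 at 0.30 were above wild type and Ilp1 at -0.58 below it. Of 38 synaptic vesicle genes only Esyt2, an extended synaptotagmin gene, was past 2-fold, at 3.53 FPKM in wild type and 8.85 in knockdown.

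The axon guidance and growth class was shifted as a body by a small amount. None of its 59 members was past 2-fold, yet 50 were above wild type, where 4627 of the 9258 genes were, and the median was 0.13. Centring on transcript length brought this to 0.04. Mical, a cytoskeletal enzyme of plexin signalling, had the highest ratio at 51.5 FPKM in wild type and 79.0 in knockdown, and Rala, in this list too, the lowest. The wiring proteins of the dpr, beat and side families, which are also surface molecules, lay on the other side with 13 of 34 above wild type and a median of -0.03. In the list for dendrite and neuron morphogenesis 29 of 38 were above wild type. The genes past 2-fold there were pigs, a linker of actin and microtubules, at 11.2 FPKM in wild type and 33.0 in knockdown, and Acf1, at 24.9 FPKM in wild type and 9.89 in knockdown, both with shared locus entries. Fascin (sn), which bundles actin, was at 113 FPKM in wild type and 199.7 in knockdown.

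**Figure D4:**
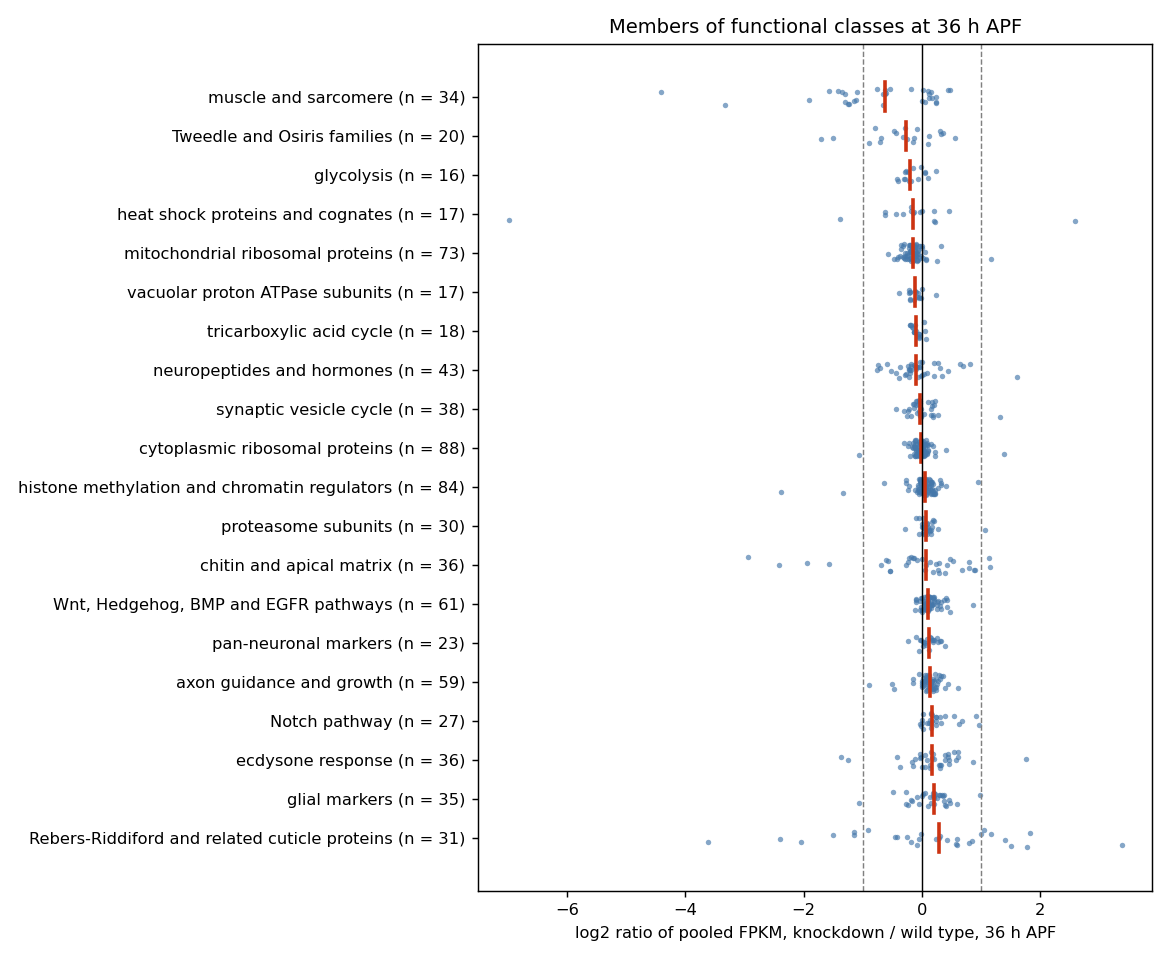
Log2 ratio of knockdown over wild type FPKM at 36 h APF for the members of 20 functional classes past the minimum, 1 point per gene, with red ticks at class medians and dashed lines at 2-fold. Medians run from -0.63 for muscle and sarcomere genes to 0.28 for cuticle protein genes, and most other class medians lie within 0.2 of 0.

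Glial genes had a median of 0.20 and 26 of 35 were above wild type, 1 gene being past 2-fold. After centring on length the median was 0.14. Some of its members were grouped by known role after the values had been seen, and most of the 35 belong to neither group. Genes of septate junctions and of the blood-brain barrier were above wild type in 9 of 9 cases with a median of 0.36, for example Nrx-IV at 99.8 and 128 FPKM, Gli at 16.5 and 22.8 FPKM and the transporter gene Mdr65 at 27.7 and 42.0 FPKM. Genes for transmitter uptake and recycling, with the citrate transporter gene Indy counted among them, were below wild type in 6 of 6 cases, with a median of -0.27. The gene e, listed under both glial and monoamine genes, was left out of this group and lay slightly above wild type. The unanimous direction thus depends on the choice of members. The gene past 2-fold was CG1732, which encodes the GABA transporter Gat of astrocyte-like glia, at 182 FPKM in wild type and 86.8 in knockdown. The glutamate transporter gene Eaat1 and the glutamine synthetase gene Gs2 both had log2 ratios of -0.27. The pan-glial transcription factor gene repo was at 57.7 and 62.0 FPKM, and wrapper, a gene of midline and cortex glia, at 28.4 FPKM in wild type and 56.5 in knockdown, just inside 2-fold with a log2 ratio of 0.99. The summed FPKM of the glial list was 2570.2 and 2692.

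Energy metabolism and organelle genes were lower by small amounts, within 2-fold. Of 16 glycolysis genes 12 were below wild type, with a median of -0.21 that was -0.18 after centring. Gapdh1, Ald and Tpi, enzymes of the middle of the pathway, had log2 ratios of -0.40, -0.28 and -0.26, whereas Eno, near its end, was at 0.11. In the tricarboxylic acid cycle 15 of 18 genes, and among vacuolar proton ATPase subunits 16 of 17, were below wild type, with medians of -0.11 and -0.11. Centring left -0.07 and -0.09. Mitochondrial ribosomal protein genes, whose transcripts are short, were below wild type in 65 of 73 cases. Their median of -0.15 became -0.08 after centring. The exception past 2-fold was tko, which encodes a protein of the small mitochondrial subunit, at 27.3 FPKM in wild type and 61.3 in knockdown, 2.25-fold higher. Cytoplasmic ribosomal protein genes had a median of -0.02 over 88 genes. The pair past 2-fold were weakly expressed paralogs of other ribosomal genes, RpS15Ab at 24.1 and 63.6 FPKM and RpS28a at 3.22 and 1.53 FPKM, for which reads may be split with the near-identical copy.

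Developmental signalling genes were above wild type in most cases. In the Notch pathway 24 of 27 genes were above wild type with a median of 0.17, and in the Wnt, Hedgehog, BMP and EGFR pathways 52 of 61 with 0.11. After centring on length these medians were 0.13 and 0.07. None of the listed members was past 2-fold. The Hedgehog co-receptor gene boi, in neither list, was past 2-fold at 4.17 and 11.8 FPKM. The Notch ligand gene Dl was at 3.55 and 4.42 FPKM, and the ligand gene hh had the highest ratio of the second list, at 3.69 and 6.69 FPKM. Neuroblast and progenitor genes followed, 22 of 28 above wild type, with a median of 0.14, or 0.06 after centring. Another 12 of the 40 listed were below the minimum. Among these, wor, dpn, ase and mira were at 0.0747, 0.895, 0.319 and 0.667 FPKM in wild type. In knockdown they were at 0, 0.905, 0.373 and 0.586 FPKM. The RNA-binding protein gene CG17838 (Syp) was at 144 FPKM in wild type and 205.1 in knockdown. The gene pros, which ends neuroblast divisions, was at 42.7 FPKM in wild type and 63.9 in knockdown. Hox genes and cofactors were above wild type in 8 of 9 cases, with a median of 0.17, which was 0.07 after centring.

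Ecdysone, the steroid that times metamorphosis, acts through EcR and a cascade of transcription factors. The ecdysone response class had a median of 0.18, or 0.16 after centring, and 26 of 36 genes were above wild type. EcR was listed at 31.9 and 43.2 FPKM, br at 13.01 and 17.8 FPKM and Eip93F at 22.1 and 33.8 FPKM, each within 2-fold. The early genes Eip74EF and Eip75B had log2 ratios of 0.16 and -0.03. Past 2-fold were weakly expressed members, namely Edg84A, a cuticle gene, higher at 0.510 and 1.74 FPKM, spok, of ecdysone synthesis, lower at 1.63 and 0.633 FPKM, and Jheh1, of juvenile hormone breakdown, lower at 1.54 and 0.648 FPKM. ImpL1, the most abundant, was at 1026 FPKM in wild type and 1279 in knockdown.

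Chromatin, cell cycle and protein turnover genes were near wild type apart from single genes. Among 84 chromatin regulators (median 0.05) the pair past 2-fold were SMC2, a condensin subunit, at 11.4 FPKM in wild type and 2.19 in knockdown, and Acf1, a subunit of a nucleosome remodelling complex, given above. Set2, a histone methyltransferase gene, was at 22.5 FPKM in wild type and 14.5 in knockdown, within 2-fold. The cell cycle and replication class of 72 genes had a median of 0.02. Besides SMC2, tum, which encodes a component of the cytokinetic spindle, was at 2.09 and 0.502 FPKM, and Orc1, of the origin recognition complex, at 2.29 and 0.990 FPKM. On the higher side was mre11, a gene for repair of DNA breaks, at 9.59 and 22.05 FPKM. Proteasome subunits lay slightly above wild type in 25 of 30 cases, with a median of 0.07 that centring on length raised to 0.12. Ubi-p5E, a polyubiquitin gene, was at 71.7 FPKM in wild type and 147 in knockdown. The Golgi matrix gene GM130 was 2.10-fold higher and egr, the tumour necrosis factor ligand gene, was 2-fold higher at 8.69 and 17.4 FPKM, as the only members of the secretory pathway and cell death classes past 2-fold.

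Genes for heat shock proteins, some of which answer to temperature, and for their cognates were uneven. The labels give the same growth protocol for both groups. In the Hsp60, Hsp70 and Hsp90 families 7 of 8 genes were below wild type, with a median of -0.38. Hsc70-2 was listed at 43.6 FPKM in wild type and 0.342 in knockdown, the largest difference of the class, and Hsp68 at 27.5 FPKM in wild type and 10.5 in knockdown. The abundant Hsp83 and Hsc70-4 were at 888 and 576 FPKM and 1167 and 859 FPKM. Small heat shock proteins divided evenly, 4 above and 4 below wild type, with Hsp23 level at -0.00 and Hsp26 at 0.45. Hsp67Bb, CG4456 in current naming, was counted with the small heat shock proteins by its older name and was 6.03-fold higher from 1.65 FPKM. Its locus entry is shared with another gene, and the pair cannot be told apart with certainty.

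Detoxification and immune genes were past 2-fold more often than the 5.13% of all genes, in both directions. Many are weakly expressed, and of all genes at 1 to 3 FPKM 20.4% were past 2-fold, at 3 to 10 FPKM 8.26%. Of 28 cytochrome P450 genes 3 were at least 2-fold higher and 4 lower, all at low or moderate FPKM. Cyp6t3 was at 1.53 and 8.70 FPKM and Cyp6a13 at 6.16 and 1.56 FPKM. Among glutathione S-transferases GstD3, at 523 and 203 FPKM, was among the genes past 2-fold that lay furthest below wild type in FPKM. The related GstD1 was at 875 and 812 FPKM. GstE1 was 2.81-fold higher and GstD8 3.90-fold lower. The metallothioneins MtnC and MtnD differed in opposite directions, with log2 ratios of -1.65 and 1.78. Of 28 antimicrobial and immune genes 4 were higher and 5 lower. The peptide genes did not share a direction. Dpt (0.393 and 10.3 FPKM), Def (3.90 and 11.1 FPKM) and Dro (2.80 and 6.25 FPKM) were higher. Mtk (3.98 and 0.638 FPKM), Drs (16.2 and 7.82 FPKM) and the Drosomycin-like dro2 (11.7 and 1.32 FPKM) were lower. The stress peptide genes TotA and TotB were at log2 ratios of 1.55 and -1.82. The regulators stayed near wild type, with Rel, the transcription factor of the Imd pathway, at -0.02, and Tl, the Toll receptor gene, at 0.15.

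In the class of phototransduction and photoreceptor genes 2 of 36 were at least 2-fold higher and 1 lower, together 8.33% beside 5.13% of all genes. ninaC, which encodes a myosin of photoreceptors, was at 22.1 FPKM in wild type and 67.0 in knockdown, pinta, of retinoid handling, at 0.623 FPKM in wild type and 3.72 in knockdown, and ort, the histamine receptor gene of their target neurons, at 12.3 FPKM in wild type and 5.38 in knockdown. Eye pigment genes included the marker genes of fly strains. w, the white transporter gene and the usual marker of transgene insertions, was listed at 88.0 FPKM in wild type and 222 in knockdown, 2.52-fold higher. CG13646 (mah) was 2.76-fold higher at 29.5 and 81.2 FPKM, and ry, the xanthine dehydrogenase gene, 5.35-fold lower at 6.802 and 1.27 FPKM. The partners of w in pigment transport, bw and st, had log2 ratios of -0.62 and -0.10. Fat body genes were at a median of -0.01. Of these Adh was at 225 FPKM in wild type and 98.7 in knockdown, with a shared locus entry, Tsf1 at 721 FPKM in wild type and 559.6 in knockdown, and the yolk protein gene Yp3 at 1.77 and 5.93 FPKM. The haemocyte marker Pxn was level at 147 and 146 FPKM, and nimC3, of a phagocytic receptor family, was 3.19-fold lower with a shared locus entry. The chemosensory classes were mostly below the minimum, with 18 of 179 receptors and 11 of 43 binding proteins past it. Ir76a was 2.04-fold higher and Obp47a 2.12-fold lower.

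The 15 lowest ratios of the comparison belonged, in order, to CG7071, CG14624, CG15818, Hsc70-2, CG34227, CheB53a, CG12448, CG14627, CG9850 (sona), CG17127, Mst89B, CG4998, TpnC47D, CG1113 and CR32207. CG7071 was at 3.46 FPKM in wild type and 0.00243 in knockdown in a locus entry shared with other genes. CG14624, with an entry of its own, was at 54.6 FPKM in wild type and 0.0967 in knockdown. CG15818 was at 9.96 and 0.0433 FPKM and CG4998 at 22.1 and 0.868 FPKM. Others were weakly expressed in wild type as well, such as Mst89B at 1.98 and CheB53a at 2.66 FPKM. The 15 highest ratios belonged to CG42303 (Snup), CG9906 (Cnx14D), Dpt, CG3397, CG11458, tal-1A, gt, CG18367, CG2233, Acp1, Sgs8, CG34328, CG40282, CG11226 and CG31103. Snup, a snurportin gene of nuclear import, was at 0.0865 FPKM in wild type and 8.04 in knockdown, and Cnx14D, a calnexin gene, at 0.108 FPKM in wild type and 5.32 in knockdown, both with shared locus entries. CG2233 was at 1.57 and 20.8 FPKM and CG11458 at 0.992 and 17.8 FPKM. gt, the gap gene giant, was at 0.332 FPKM in wild type and 5.32 in knockdown.

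Among genes past 2-fold, the order by difference in FPKM was another. Genes within 2-fold could differ by more, such as Obp44a at 17817 FPKM in wild type and 13600 in knockdown. Furthest below wild type was CG13840, at 911 FPKM in wild type and 105 in knockdown, followed by small nucleolar RNAs, the nuclear RNA gene snmRNA:331 (903 and 327 FPKM), GstD3, Cpr66D, CG33299 (276 and 53.1 FPKM) and CG17777 (281 and 102 FPKM). Furthest above was CG13023, at 358 FPKM in wild type and 1136 in knockdown. Next were CG34247 (192 and 565 FPKM), CG13081 (103 and 322 FPKM), CG13082 (111 and 289 FPKM) and CG6912 (99.5 and 254.8 FPKM), then a small nucleolar RNA, w, CG3984, CG13042 and Ubi-p5E. Most of these CG genes have no named function in the files.

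A further 101 genes had a mean FPKM of at least 1 but were listed at 0 in 1 group, and no fold is given for them. Of these, 86 were short non-coding RNAs. Among the other 15, 9 were at 0 in wild type and 6 at 0 in knockdown. CG11697 (Reepl1) was listed at 0 in wild type and 38.9 FPKM in knockdown, and CG12971 at 0 and 12.5. At 0 in wild type were also Acp70A, Acp98AB, Ada1-1, CG15068, CG32071 and CG42544, with 1 short non-coding RNA. CG31157 was listed at 28.9 FPKM in wild type and 0 in knockdown, followed by CG13217 at 5.09 and 0. CG12607, CG42852, CG6244 and 1 short non-coding RNA were the rest at 0 in knockdown.

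Some of the genes past 2-fold were neighbours. Counting protein-coding and long non-coding genes past the minimum in their order along each arm, 52 of 9078 adjacent pairs had both genes past 2-fold, 25 pairs both lower, 15 both higher and 12 in opposite directions. Of the 40 pairs in the same direction, 34 had separate locus entries. The pairs joined into 32 runs of 72 genes, 6 of which held 3 genes or more. The longest was on the X chromosome (dm3, 1075720 to 1105746), where CG14627, CG11380, CG14625, CG14624 and CG11382 were all lower. CG11382, the most abundant of them, was at 105 FPKM in wild type and 7.05 in knockdown, CG14627 at 8.49 and 0.273 FPKM and CG14625 at 83.9 and 28.5 FPKM. Also on the X (2321140 to 2364036), gt, tko and boi were all higher, with boi, a Hedgehog co-receptor gene, at 4.17 and 11.8 FPKM. The genes beyond either end of these runs were within 2-fold. By definition, a run ends at the first gene that is not past 2-fold in the same direction.

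On 3R (8858259 to 8877172) ry, Hsc70-2 and CG7966 were lower, with CG7966 at 21.4 and 8.28 FPKM, and CG31157, at 0 in knockdown, belongs to the same stretch. Elsewhere on 3R (10960860 to 10967444) CG6912, CG3984 and CG3987 were higher by 2.56-fold, 2.81-fold and 2.23-fold. The short run CG34051, CG42866 and CG13965 on 2L was higher and CR32207, CG32212 and pncr009:3L on 3L was lower. Pairs included CG13082 with CG13081, CG13053 with CG34247, CG13044 with CG13042, CG17917 with CG10298, verm with serp, CG4998 with CG33257, Tm2 with CG14866, and CG7470 with Act79B. Whether these stretches differ in sequence between the strains was not tested.

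**Figure D5:**
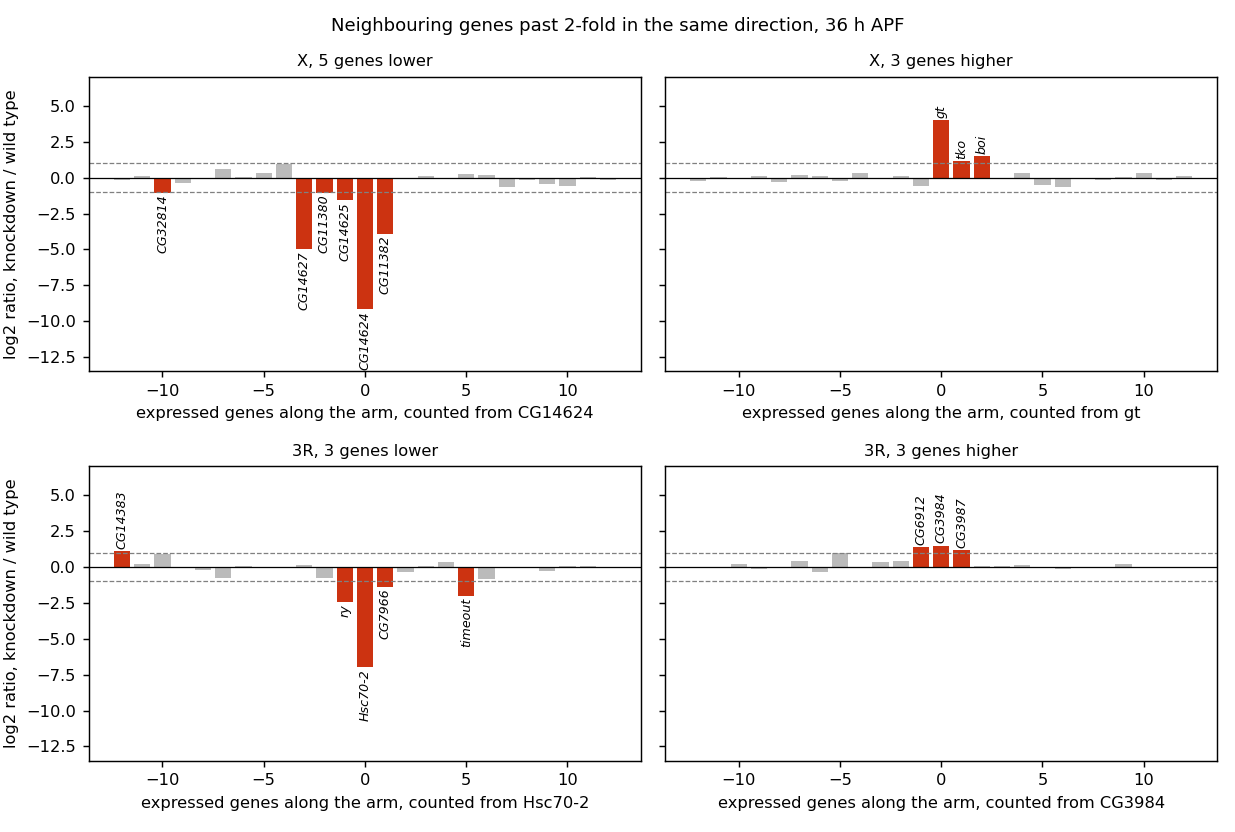
Log2 ratio of knockdown over wild type FPKM at 36 h APF for 25 expressed genes in order along the arm, centred on CG14624, gt, Hsc70-2 and CG3984; red bars are past 2-fold and dashed lines mark 2-fold. The runs of 5, 3, 3 and 3 neighbours stand among genes most of which lie within 2-fold.

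Other libraries of the same genotypes were made at 72 h APF, after 36 h of recovery, and give a second ratio for each gene within a table normalised on its own. Of the 195 genes at least 2-fold higher at 36 h, 120 met the minimum at 72 h. Of these, 43 were at least 2-fold higher at 72 h as well, 22.1% of the 195 and 23.1% of the 186 genes higher at 72 h. Of all genes that met the minimum at 72 h, 2.02% were at least 2-fold higher. Of the 280 lower genes, 192 met the minimum at 72 h, and 74 were lower at 72 h as well. That is 26.4% of the 280 and 15.5% of the 477 lower at 72 h, where 5.18% of all genes were. In the opposite direction past 2-fold were 9 and 10, and within 2-fold were 68 and 108. The rest had no 72 h ratio past the minimum, so their level after recovery is not given. Some genes of the runs were among those with like ratios at both ages, such as gt (4.0 and 4.94), tko (1.17 and 1.67), Hsc70-2 (-6.99 and -4.36), CG11382 (-3.90 and -3.29) and CG6912 (1.36 and 1.79). SMC2 (-2.38 and -4.49), tum (-2.06 and -4.67), Acf1 (-1.33 and -1.01) and GstD3 (-1.37 and -2.41) were further examples. Other genes of the runs did not keep their ratio. At 72 h boi, in the run of gt and tko, was near wild type at 0.07. CG13082 and CG13965, higher at 36 h, were lower at 72 h, at -3.28 and -2.19. Stim and olf186-F had ratios of -0.31 and -0.79 at 72 h. Genes past 2-fold at 36 h and near wild type at 72 h included CG1732 (0.18), Inos (0.29), verm (-0.23), serp (-0.36), CG4998 (0.07) and Adh (-0.06). Act79B, at -3.33 at 36 h, was at 2.2 at 72 h. Both tables set Canton S against the transgenic genotype, so a ratio shared by both ages does not separate strain from knockdown.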

How the data were processed

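RNA from the pupal CNS was sequenced in 2 biological replicates of wild type and 2 of knockdown at 36 h APF, and groups were taken from the sample titles. Per the labels and the methods of the study, reads were mapped onto build dm3 by TopHat2 2.0.11. From Cuffdiff 2.2.0, which scaled the libraries geometrically, the authors deposited a single FPKM for each gene in each group, with replicates combined. The authors also deposited an average log2 CPM per gene from their edgeR comparison, used here only as an alternative minimum. The deposited tables further hold the authors' fold changes, test statistics, p-values, q-values and significance calls, which were not used. No value per replicate was used, so there is no SD, test or interval, and replicates could not be compared. The study reports a range of reads per sample over the series, but total counts and depth of each sample are not in the values used. Among genes under a mean FPKM of 1, 1 ratio (log2 0.32) recurred, as single reads give, so low values move in steps.

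Log2 ratios of knockdown over wild type FPKM were computed without a pseudocount for genes with a mean FPKM of at least 1 and values above 0 in both groups, with a threshold of 2-fold. Of 13989 symbols, 13455 matched a FlyBase ID in the reference tables, and current symbols come from there. Lengths are those of the longest transcript in Ensembl release 115, used for lengths and biotypes only, and 96.2% of the 9258 genes had one. Coordinates are the deposited dm3 loci. Where several genes have the same deposited locus, the division of reads among them is uncertain, which holds for 177 of the 475 genes past 2-fold. Gene classes (70) were matched by symbol or older symbol and described by counts and medians beside all genes. The members and lists, which overlap in places, were chosen with earlier results of these data known.

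Genes named are the SOCE genes, the 15 highest and 15 lowest ratios, the 10 largest FPKM differences in each direction past 2-fold, up to 5 members past 2-fold and the most abundant member of classes described, members of neighbouring runs, and genes listed at 0 in 1 group. Other genes named in a class are members chosen after their values were seen, to show its range or its roles. Alternatives were a pseudocount of 1, other minimums, folds of 1.5 and 3, other scalings and only genes with status OK. Counting and run finding were tested on simulated data. Computations used Python 3.11.15, pandas 2.3.3, NumPy 2.4.6 and matplotlib 3.10.9.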

Additional observations from a re-analysis of the deposited data

How the results depend on the processing

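The counts of 195 genes at least 2-fold higher and 280 at least 2-fold lower follow the minimum and the threshold. Without a minimum FPKM they were 597 and 774, with a mean FPKM of at least 5 they were 84 and 146, at 1.5-fold 484 and 526, and at 3-fold 69 and 133. Leaving out genes that share a locus entry, an alternative chosen after seeing the data, gave 123 and 175 of 5582 genes. Under a pseudocount of 1, a log2 CPM minimum of 1, the other scalings, status OK, length centring and the exclusion of short non-coding RNAs the counts stayed within 1.5 times. The pseudocount brought 14 ratios of named genes inside 2-fold, and it shrank the most extreme ones, as CG7071 went from -10.48 to -2.15 and CG14624 from -9.14 to -5.66. The 101 genes listed at 0 in 1 group became 59 with the log2 CPM minimum, 43 with status OK, 15 without short non-coding RNAs and 15 without shared locus entries. The median of cuticle protein genes turned from 0.28 to -0.048 without a minimum FPKM. That of male germline genes, 7 past the minimum, turned from 0.21 to -0.11 without a minimum and to -0.31 with the log2 CPM minimum. The cause of these reversals was not tested. The muscle median was -0.63 as reported, -0.52 with a pseudocount of 1 and -0.75 without shared locus entries. No paired analysis was possible because the deposited tables hold 1 pooled value per group, and for the same reason no replicate could be left out. Depth of each sample is unknown from the values used, and weakly expressed genes carry the largest ratios and the least precision.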
